A study of Mus musculus with 16 samples.

Results

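1810037I17Rik and Hsd3b2 are a pair of mouse chromosome 3 genes, 2 of the 9669 named by single-gene probes of the array. They were chosen by their log2 ratios on these same 16 arrays, which set the same kidneys apart in both, and were found by the gene symbol in the platform's annotation. Each had 1 of the 20205 probes. Right kidneys of 5 wild-type male littermates, named W1 to W5, were compared. Their strain background mixed C57BL/6 with 129Sv, their age was 88 ± 2 days, and all were killed in the morning. Each kidney of W1 to W4 shared 4 two-colour arrays with W5, 2 in each channel orientation, giving 16 arrays. All groups were untreated and wild type. The genotype of single mice at any locus is not given in the sources used here. Arrays of the same mouse repeat the hybridisation of 1 kidney, so their spread is technical and each kidney stands for 1 animal.

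1810037I17Rik, also listed under the name Aln, encodes another-regulin, a small membrane protein of the endoplasmic reticulum. Regulins such as phospholamban and sarcolipin bind SERCA pumps, which move calcium from the cytosol into the endoplasmic reticulum, and lower their activity. Another-regulin is known from many tissues, those other than muscle included. Hsd3b2 encodes a 3 beta-hydroxysteroid dehydrogenase, an enzyme family that turns delta-5 into delta-4 steroids such as progesterone and androstenedione. The mouse family lies as a cluster on chromosome 3. Its type I enzyme is known from adrenal gland and gonads, while other members, Hsd3b2 among them, are known from kidney and liver.

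The promoters are shown because both genes moved together over the kidneys while their start regions differ in base composition. The windows run from 250 bases before to 50 bases after the gene's start, from the RefSeq table of build GRCm38.p6, which held both genes. The 1810037I17Rik window lies at chr3:122924147-122924446 on the plus strand, with capitals marking matches to GGGCGG, the GC box. The Hsd3b2 window lies at chr3:98724494-98724793 on the minus strand, with capitals marking a match to AGAACA, the half-site of steroid receptors such as the glucocorticoid receptor.
1810037I17Rik: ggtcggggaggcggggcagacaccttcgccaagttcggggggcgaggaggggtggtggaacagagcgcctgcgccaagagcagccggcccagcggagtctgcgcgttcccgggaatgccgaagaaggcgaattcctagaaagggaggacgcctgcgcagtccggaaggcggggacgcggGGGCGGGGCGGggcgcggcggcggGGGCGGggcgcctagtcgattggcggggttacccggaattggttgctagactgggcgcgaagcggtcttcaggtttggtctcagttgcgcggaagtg
Hsd3b2: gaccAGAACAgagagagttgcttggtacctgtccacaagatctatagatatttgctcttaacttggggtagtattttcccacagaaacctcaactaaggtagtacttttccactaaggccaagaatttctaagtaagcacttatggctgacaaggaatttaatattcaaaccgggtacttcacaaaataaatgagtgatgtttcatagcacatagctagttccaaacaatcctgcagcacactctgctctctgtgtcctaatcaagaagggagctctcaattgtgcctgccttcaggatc
The 1810037I17Rik window had a GC content of 70.0% and 36 CpG dinucleotides, against 41.3% and 1 in the Hsd3b2 window. The medians over all 32851 promoter windows of the table were 52.7% and 7. Searched on both strands, GGGCGG matched 3 times in the 1810037I17Rik window, with 1 base shared by neighbouring matches, and was present in 35.7% of all windows. AGAACA matched once in the Hsd3b2 window and was present in 19.0% of all windows. CCAAT, the CCAAT box, matched 2 times in the 1810037I17Rik window and had no match in the Hsd3b2 window, with a share of 37.4% of all windows. TATAAA, the TATA box, and AGGTCA, a half-site of other nuclear receptors, had no match in either window and were present in 13.6% and 16.3% of all windows. None of the 5 motifs was thus found in both windows.

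The values are log2 ratios of a mouse's kidney against W5 as the authors deposited them, with the sign turned on the 8 arrays that held W5 in channel 1. The sources used here do not say which channel is the numerator. A value above 0 therefore means the side of W5 on which 1810037I17Rik lay in W1, W2 and W4, and whether that side is more or less RNA is not settled. W5 is at 0 by definition. A difference in a whole kidney can come from RNA per cell or from the share of cells of a type, which cannot be told apart here. Log ratios carry no absolute level, so the labelled tissue could not be checked by the level of its markers. Arrays gave values for 80.2% to 91.1% of the probes, and the residual SD of the fit lay between 0.153 and 0.231 per array. It was 0.153 to 0.174 in W1, 0.168 to 0.201 in W2, 0.157 to 0.211 in W3 and 0.208 to 0.231 in W4. Array 3 of W4 had the fewest values. The number of arrays and animals limits the precision.

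1810037I17Rik was measured on all 16 arrays. In W1 its log2 ratios were 1.57, 1.48, 1.81 and 2.02 in arrays 1 to 4. In W2 they were 1.43, 1.42, 1.54 and 1.67, and in W4 1.97, 1.59, 1.98 and 1.72. In W3 they were -0.05, -0.32, -0.05 and -0.16. The 12 arrays of W1, W2 and W4 lay between 1.42 and 2.02 and those of W3 between -0.32 and -0.05, so the spans did not overlap and W3 lay beside W5. Means per mouse were 1.72 ± 0.24 for W1, 1.51 ± 0.11 for W2, -0.14 ± 0.13 for W3 and 1.81 ± 0.19 for W4 (SD, n = 4 arrays each). As linear ratios these are distances from W5 of 3.29-fold for W1, 2.86-fold for W2, 1.1-fold for W3 and 3.52-fold for W4.

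Hsd3b2 was also measured on all 16 arrays and split the kidneys in the same way. In W1 its log2 ratios were 0.87, 0.80, 0.82 and 0.99 in arrays 1 to 4. In W2 they were 0.71, 0.73, 0.86 and 0.90, and in W4 0.83, 0.82, 0.77 and 0.90. In W3 they were 0.02, 0.14, 0.0046 and 0.18. The 12 arrays of W1, W2 and W4 thus lay between 0.71 and 0.99, clear of the span of 0.0046 to 0.18 in W3. Means per mouse were 0.87 ± 0.09 for W1, 0.80 ± 0.09 for W2, 0.09 ± 0.09 for W3 and 0.83 ± 0.05 for W4 (SD, n = 4 arrays each). These are distances from W5 of 1.83-fold for W1, 1.74-fold for W2, 1.06-fold for W3 and 1.78-fold for W4.

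**Figure D1:**
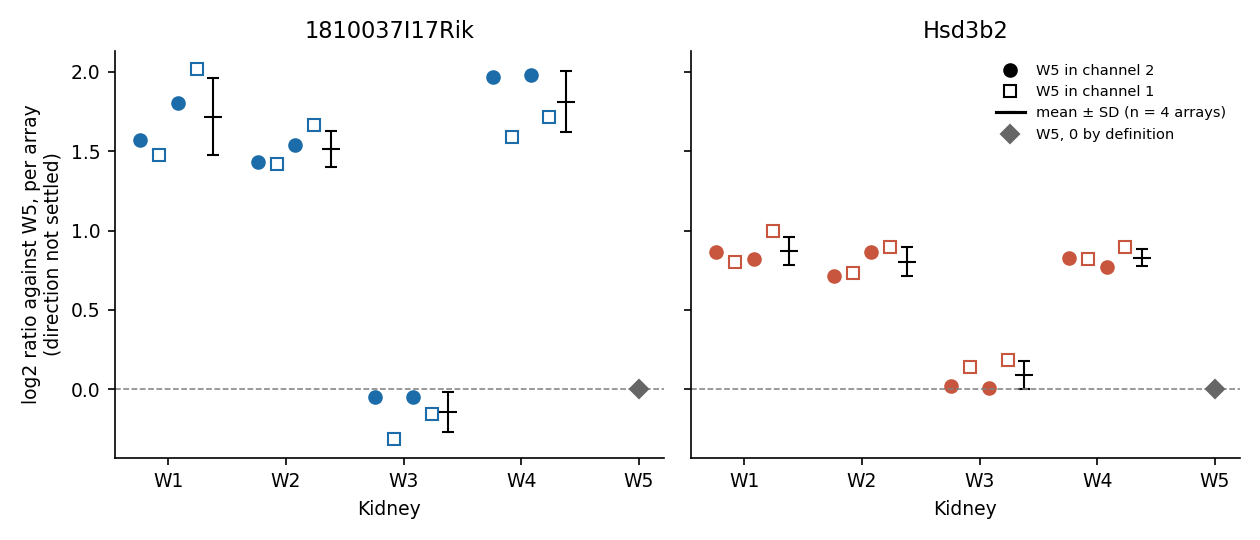
Log2 ratio against W5 (y axis) of each array by kidney (x axis) for 1810037I17Rik on the left and Hsd3b2 on the right, with filled circles for W5 in channel 2, open squares for W5 in channel 1 and bars for the mean ± SD of 4 arrays. The arrays of W1, W2 and W4 lie between 1.42 and 2.02 for 1810037I17Rik and between 0.71 and 0.99 for Hsd3b2, and those of W3 lie near W5 at 0.

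Because both genes were chosen for this profile, their kidney differences are described here without a test. The limma fit, with 4 mouse coefficients and a dye term per probe, gave standard errors of 0.09 for 1810037I17Rik and 0.06 for Hsd3b2. In the order of the kidneys for 1810037I17Rik, W4 and W1 were 0.09 ± 0.13 apart (SE, as are all errors of differences) and W2 lay below W4 by 0.30 ± 0.13 and below W1 by 0.20 ± 0.13. The spans of the arrays of W1, W2 and W4 all overlapped one another. Between W2 and W5 lay a gap of 1.51 ± 0.09, and W3 and W5 were 0.14 ± 0.09 apart. For Hsd3b2 the order was W1, W4 and W2, with neighbours 0.04 ± 0.09 and 0.03 ± 0.09 apart, and the arrays of all 3 mice overlapped. The gap from W2 to W3 was 0.71 ± 0.09, and W3 and W5 were 0.09 ± 0.06 apart. In both genes every gap was larger than any difference between neighbours on one side of it.

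The genes differed in which side of W5 the W3 kidney lay on. All 4 arrays of W3 were below 0 for 1810037I17Rik and all 4 were above 0 for Hsd3b2, with fitted values of -0.14 ± 0.09 and 0.09 ± 0.06. In both genes W3 lay farther from W5 on the arrays that held W5 in channel 1. The size of the Hsd3b2 difference from W5 was 50.6% of that of 1810037I17Rik in W1, 53.0% in W2 and 45.8% in W4 on the log2 scale. The range, from the lowest to the highest of the 5 kidneys, was 1.96 for 1810037I17Rik, between W4 and W3, and 0.87 for Hsd3b2, between W1 and W5. These ranges ranked 7 and 49 among the 8005 named genes tested, and 1 and 2 among the 354 of them on chromosome 3. The choice of the pair by these same ratios favoured high ranks, so nothing is read from them. Within mice, the deviations of both genes from the mouse mean correlated at r = 0.49 and rho = 0.43 over 16 arrays, with the dye term removed. The points of this correlation share arrays and extracts, and it is given as a description. The pooled arrays fall into separate clusters, so the correlation over them, given below with the likeness, restates the choice of the pair.

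**Figure D2:**
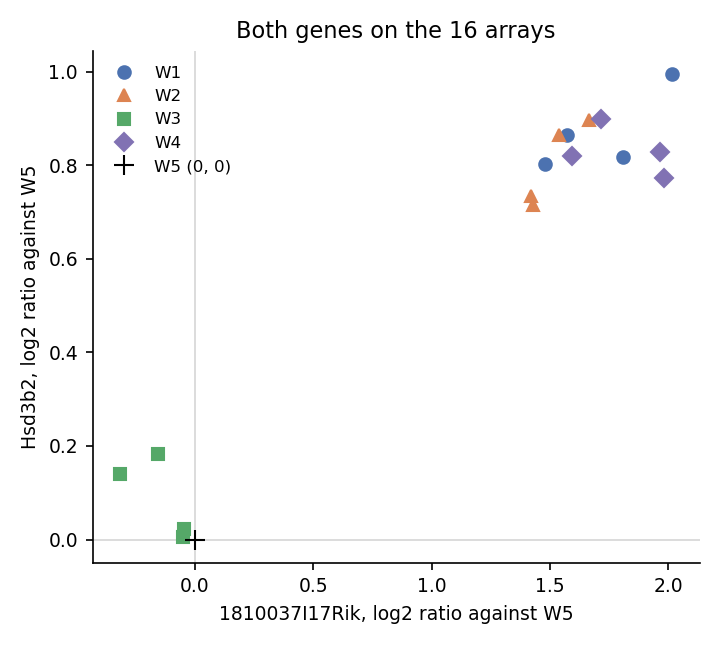
Log2 ratio against W5 of 1810037I17Rik (x axis) and Hsd3b2 (y axis) on each of the 16 arrays, with a symbol per mouse and W5 as a cross at 0. The 12 arrays of W1, W2 and W4 form one cluster, and the 4 arrays of W3 lie beside W5.

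The dye term is a measure that the choice of the genes did not use, since each mouse had 2 arrays per orientation. It was 0.05 ± 0.05 for 1810037I17Rik and -0.04 ± 0.03 for Hsd3b2 (SE), with adjusted p = 0.503 and 0.486 in limma's moderated test over all 15715 probes. In that test 12.5% of the probes were called. On the deposited, unturned scale the ratios of 1810037I17Rik in W1 averaged 1.69 with W5 in channel 2 and -1.75 with W5 in channel 1. In W4 they averaged 1.97 and -1.65. For Hsd3b2 these means were 0.84 and -0.90 in W1, 0.79 and -0.82 in W2, and 0.80 and -0.86 in W4. These unturned means are a description, since the choice of the genes from the turned ratios fixes their change of sign. The residual SD of Hsd3b2 was 0.073, lower than that of all but 0.325% of the tested probes, and that of 1810037I17Rik was 0.175, at percentile 38.5.

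Across all probes, limma's F test for any difference among the 5 kidneys called 629 of 15715 probes at an adjusted p under 0.05 (4.00%), and 334 of the 8003 named genes other than the pair (4.17%). The F test among W1 to W4, in which W5 cancels, called 110 probes (0.700%) and 64 of those named genes (0.800%). At an unadjusted p under 0.05 the 2 tests held 18.2% and 11.4% of the named genes other than the pair. Both members were among the calls of both tests, and nothing is read from this, since the same contrasts chose them. P-values measure the spread between repeat hybridisations of the same extracts and not between mice.

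The other 3 tested genes of the Hsd3b family, Hsd3b3, Hsd3b4 and Hsd3b1, did not show differences of this size. Hsd3b3, the next tested gene on one side of Hsd3b2, had log2 ratios of 0.21 to 0.27 for W1, 0.20 to 0.38 for W2, 0.06 to 0.20 for W3 and 0.02 to 0.46 for W4. The spans of all 4 mice overlapped except those of W1 and W3, and every array lay on the same side of W5. Its fitted values were 0.24, 0.29, 0.14 and 0.27 ± 0.07 in W1 to W4, a range of 0.29 (5-kidney F test, limma, adjusted p = 0.00723). Among W1 to W4 alone Hsd3b3 was not called (adjusted p = 0.81), and of its 10 kidney pairs only W2 and W5 passed (0.29 ± 0.07, adjusted p = 0.0424). The call of Hsd3b3 was lost in 2 of 30 alternative settings. Over the 5 fitted kidney values Hsd3b3 had a Pearson's r of 0.92 to Hsd3b2 and 0.86 to 1810037I17Rik, with W3 nearest to W5. Hsd3b4 and Hsd3b1 had r = -0.05 and 0.23 to Hsd3b2.

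Hsd3b4, the next tested gene on the other side and a kidney member of the family, lay at -0.20 for W1, 0.0041 for W2, -0.23 for W3 and -0.12 for W4 (SE 0.06 each). It was not called (limma adjusted p = 0.0544), and it was called in 7 of 30 alternative settings. The reference table lists a further gene, Gm10681, under the synonym Hsd3b4, so this probe may report more than 1 gene. Hsd3b1, the adrenal and gonadal type, lay between -0.08 and 0.07 in W1 to W4 with a standard error of 0.12 and was not called (limma adjusted p = 0.922). Its arrays spread widely, from -0.42 to 0.27 in W4 alone. Hsd3b7, an enzyme of bile acid synthesis outside the cluster, had 8 values and was not tested. They lay at 0.48, -0.07 and -0.51 for W1, 0.48 and 1.96 for W2, -0.05 for W3, and 1.33 and -1.21 for W4. Hsd3b5 and Hsd3b6 are not named by single-gene probes, and Nsdhl, a related sterol enzyme, shares its probes with other genes. Family members share much coding sequence, so a probe may bind several of them, which leaves each member's own value uncertain.

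**Figure D3:**
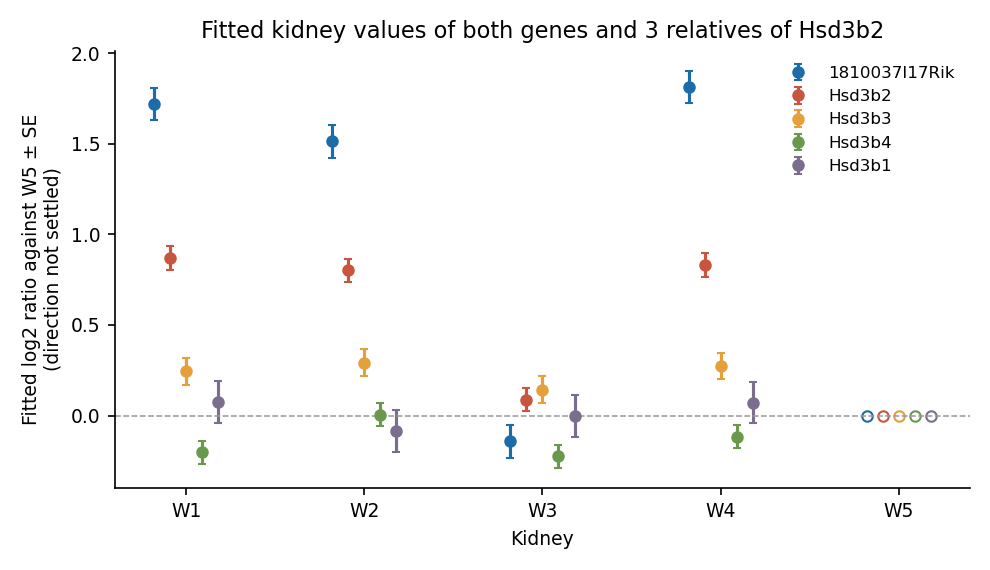
Fitted log2 ratio against W5 with its standard error (y axis) by kidney (x axis) for 1810037I17Rik, Hsd3b2, Hsd3b3, Hsd3b4 and Hsd3b1, with W5 at 0 as open circles. 1810037I17Rik and Hsd3b2 lie away from W5 in W1, W2 and W4, while the other 3 genes stay within 0.3 of W5 in every kidney.

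Steroid metabolism beyond this family had 1 of 21 tested genes called in the 5-kidney test and 0 in the W1 to W4 test, against 4.17% and 0.800% of the other named genes. By limma's unadjusted p under 0.05 the counts were 9 and 5, against 18.2% and 11.4% of the other named genes. The called gene was Hsd11b1, which regenerates active glucocorticoid, at 0.46, 0.71, 0.19 and 0.28 in W1 to W4 (SE 0.09, adjusted p = 9.54e-05). The median range of the list was 0.28, against 0.23 over all named genes. Star, which carries cholesterol to the inner mitochondrial membrane, and Cyp11a1, the enzyme that starts steroid synthesis from it, had ranges of 0.28 and 0.30 and were not called (limma adjusted p = 0.523 and 0.237). Of the 8 tested adrenal markers, 0 were called in either test by limma, with 1 and 0 at an unadjusted p under 0.05. Their medians were 0.04, -0.03, -0.02 and 0.0072 in W1 to W4. Star, Cyp11a1 and Hsd3b1 belong to this list.

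Steroid receptors and their partners had 3 of 14 genes called in the 5-kidney test and 1 in the W1 to W4 test, against 4.17% and 0.800% of the other named genes. Nr3c1, the glucocorticoid receptor, lay at 0.34, 0.38, 0.17 and 0.47 in W1 to W4 (SE 0.08, adjusted p = 0.000788). Fkbp5, a co-chaperone that glucocorticoids induce, lay at -0.31, -0.39, 0.21 and -0.12 (SE 0.07, adjusted p = 0.00188) and was the gene of the list also called among W1 to W4 (adjusted p = 0.017). Fkbp4, a co-chaperone of steroid receptors, lay at -0.31, -0.09, 0.04 and -0.30 (SE 0.07, adjusted p = 0.0132). The adjusted p-values are from limma over all probes.

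Genes of calcium handling around another-regulin had 0 of 16 tested genes called by limma in either test, with 2 and 1 at an unadjusted p under 0.05. The shares of the other named genes were 4.17% and 0.800%, and 18.2% and 11.4% unadjusted, so these counts lie near or below the background. Atp2a2, which encodes the SERCA2 pump that another-regulin binds, lay at -0.13, -0.08, -0.20 and -0.27 in W1 to W4 (SE 0.08, adjusted p = 0.12). The second Atp2a2 probe lay at -0.03, 0.21, 0.18 and -0.18 and was not called either (limma adjusted p = 0.401). Pln, which encodes phospholamban, had a range of 0.27 with values of -0.21, 0.06, -0.06 and -0.12 and was not called (limma adjusted p = 0.826). Calr and Canx, chaperones of the endoplasmic reticulum, had ranges of 0.15 and 0.14. The median range of the list was 0.21.

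The neighbours on chromosome 3 were taken in the gene order of assembly GRCm38.p6. Between Hsd3b2 and 1810037I17Rik lay 54 tested named genes, of which 2 were called in the 5-kidney test and 0 in the W1 to W4 test, with 9 and 6 at limma's unadjusted p under 0.05. The shares of the other named genes were 4.17% and 0.800%, and 18.2% and 11.4% unadjusted, so these counts lie near the background. The called ones were Hsd3b3 and Cnn3, an actin-binding calponin. The ranges of the 54 genes had a median of 0.24 and reached 0.55 in Cnn3. In the pair, chosen by these same ratios, the ranges were 0.87 and 1.96. Of the 20 tested genes on each side, 3 of 40 around Hsd3b2 and 2 of 40 around 1810037I17Rik were called (7.50% and 5.00%, against 4.17% of the other named genes). In the W1 to W4 test 0 were called around either gene, with 5 around Hsd3b2 and 6 around 1810037I17Rik at limma's unadjusted p under 0.05. Over chromosome 3 as a whole, 18 of the other 352 tested genes were called (5.11%), and 2 of them among W1 to W4.

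The genes next to 1810037I17Rik were Usp53 on one side and 4930447N08Rik on the other. Usp53, which encodes a tight junction protein of the ubiquitin protease family, lay at 0.03, 0.02, 0.02 and 0.50 ± 0.10 in W1 to W4 (limma adjusted p = 0.0504). It was called in 7 of 30 alternative settings, and only W4 lay away from W5. 4930447N08Rik lay at 0.15, 0.06, -0.15 and 0.17 ± 0.13 and was not called (limma adjusted p = 0.629). Abcd3, Gclm, Dnttip2, Fnbp1l, Synpo2, Snhg8, 1700006A11Rik and Ank2, the rest of the 5 nearest on each side, had ranges of 0.15 to 0.35, with none called. Cnn3 lay at 0.0094, 0.20, -0.34 and -0.21 ± 0.08 (limma adjusted p = 0.0313), a call that 10 of 30 settings did not give. Npnt, the matrix protein nephronectin, lay below 0 in all 4 mice with a range of 0.29 (limma adjusted p = 0.0153).

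Near Hsd3b2, Phgdh, the first enzyme of serine synthesis, had a range of 0.09 and Sec22b, a vesicle fusion protein, one of 0.57, and neither was called (limma adjusted p = 0.835 and 0.142). Sec22b lay at 0.49 in W4 alone and between -0.08 and 0.12 in W1 to W3. Pde4dip, Chd1l, Wdr3, Gdap2 and Tent5c, with Hsd3b4, Hsd3b3 and Hsd3b1 the rest of the 5 nearest on each side, had ranges of 0.10 to 0.22 and were not called. A second Chd1l probe had a range of 0.23 and was also not called (limma adjusted p = 0.533). The second Phgdh probe had a wider range of 0.41, with W2 at -0.32, and was not called (limma adjusted p = 0.264). Acp6, a lysophosphatidic acid phosphatase, was called at 0.20, 0.26, 0.03 and 0.32 ± 0.07 (limma adjusted p = 0.00659). Its W3 kidney lay nearest to W5, at a smaller size than in the pair. Txnip, the thioredoxin-interacting protein, lay at -0.25, 0.06, -0.34 and -0.11 ± 0.08 (limma adjusted p = 0.0397), a call that 15 of 30 settings did not give.

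**Figure D4:**
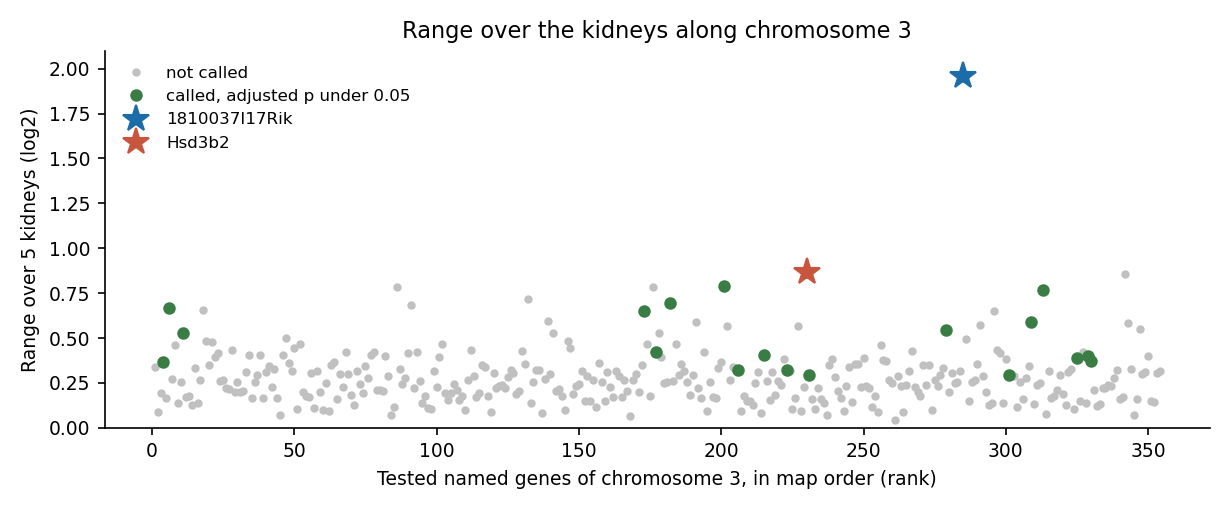
Range over the 5 kidneys on the log2 scale (y axis) of the 354 tested named genes of chromosome 3 in map order (x axis, rank), with stars for 1810037I17Rik and Hsd3b2, green points for called genes and grey points for the rest. The stars stand at 1.96 and 0.87, and the 54 genes between them reach at most 0.55.

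Likeness to each member was measured as Pearson's correlation over the 5 fitted kidney values, among the 505 named genes with a range of at least 0.5, as a description over 5 points that share W5. The members correlated with each other at r = 0.99 over the kidneys and 0.98 over the 16 arrays with the dye term removed, each ranking first for the other, which restates the choice of the pair by this profile. With no minimum on the range, 4 of 8004 genes were nearer to each of them than the other was. The 10 most alike genes of each member had 6 in common. These were D630039A03Rik, Mttp, Lrrc66, Mgp, Ugt3a2 and Gsta2. Besides the other member, Mttp was the 1 gene of either 10 that lies on chromosome 3. Among called genes of any range, Acp6, a neighbour of Hsd3b2, was also among the 10 most alike of each member (r = 0.94 to Hsd3b2).

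The sizes of these genes stayed under those of the pair. D630039A03Rik lay at 0.42, 0.28, -0.08 and 0.32 ± 0.08 in W1 to W4, with r = 0.97 to 1810037I17Rik and 0.96 to Hsd3b2. Mttp, which loads lipid onto apolipoprotein B, lay at 0.39, 0.47, -0.03 and 0.74 ± 0.11, with r = 0.94 and 0.91. Gsta2, a glutathione transferase, lay at 0.45, 0.62, -0.17 and 0.38 ± 0.08 (r = 0.92 with each). Ugt3a2, a glycosyltransferase of drug metabolism, lay at 0.42, 0.53, -0.04 and 0.33 ± 0.08 (r = 0.92 and 0.94). Lrrc66 lay at 0.28, 0.22, -0.28 and 0.42 ± 0.08 (r = 0.93 and 0.87). Each was called in the 5-kidney test (limma adjusted p = 4.22e-05 for Gsta2 to 0.00315 for Lrrc66), and of these 6 genes Gsta2 and Lrrc66 were called among W1 to W4 (limma adjusted p = 0.00525 and 0.023). The minimum range and the likeness came from the same fitted values as the tests. The choice of alike genes thus favoured these calls, which are given as a description.

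The remaining alike genes had the following values. Mgp, a matrix protein of vessel walls, lay at 0.32, 0.29, 0.07 and 0.51 ± 0.08 (r = 0.93 to 1810037I17Rik and 0.91 to Hsd3b2). Col14a1, a collagen of fibril surfaces, lay at 0.34, 0.19, -0.08 and 0.54 (r = 0.91 to 1810037I17Rik), and Podxl, the podocyte surface protein podocalyxin, at 0.40, 0.68, 0.04 and 0.47 ± 0.08 (r = 0.91 to Hsd3b2). The chemokine gene Cxcl14, at 0.23, 0.48, -0.23 and 0.61 ± 0.11, and Zbtb38, at 0.17, 0.32, -0.20 and 0.26, completed the 10 of 1810037I17Rik. Zbtb38 was not called (limma adjusted p = 0.148). Gpam, which starts glycerolipid synthesis, at 0.45, 0.51, 0.10 and 0.30 ± 0.07, and the splicing factor gene Crnkl1, at 0.23, 0.46, -0.11 and 0.29 ± 0.08, completed those of Hsd3b2. The second Crnkl1 probe was not called (limma adjusted p = 0.527).

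Marker lists are set against 4.17% of the other named genes called in the 5-kidney test and 0.800% in the W1 to W4 test. Markers of endothelium and stroma had 6 of 12 tested genes called (Esm1, Mgp, Emcn, Egfl7, Dcn and Col3a1), with medians of 0.09, 0.23, 0.06 and 0.26 in W1 to W4 and outermost values of -0.18 and 0.74. Col3a1 lost its call in 11 of 30 alternative settings and Dcn in 6. Glomerulus markers had 3 of 5 called (Podxl, Npnt and Ehd3), with medians of 0.08, 0.11, -0.09 and -0.02. Ehd3 lost its call in 9 of 30 alternative settings. Its second probe lay at -0.04, 0.12, 0.19 and 0.23 in W1 to W4 and was not called (limma adjusted p = 0.624). Proximal tubule markers had 7 of 17 called (Slc22a7, Napsa, Gramd1b, Slc17a3, Slc13a3, Slc5a1 and Aqp1), with medians of -0.05, 0.04, -0.07 and -0.17. Adipose markers had 6 of 7 called (Scd1, Fabp4, Car3, Cidec, Plin4 and Lpl), with medians of -0.08, -0.36, -0.35 and -0.29. By these medians W3 lay beside W2 and W4, which single genes such as Scd1 and Lpl did not share. Distal and collecting duct markers had 3 of 11 called (Aqp2, Slc26a4 and Foxi1), liver markers 2 of 9 (Ttr and Cps1), and blood markers 0 of 6 (2 at limma's unadjusted p under 0.05). The call of Cps1 was lost in 16 of 30 alternative settings and that of Slc26a4 in 7. The second Ttr probe was not called (limma adjusted p = 0.907). In the W1 to W4 test 3 endothelium and stroma, 2 proximal tubule, 1 adipose and 1 liver marker were called, and 0 of the glomerulus, distal and blood markers (2, 2 and 1 at limma's unadjusted p under 0.05). The part of these cell types in the profile of the pair was not tested.

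The 5 genes of lowest correlation ran opposite to the pair, and they were the same for both members. Slc38a3, a glutamine transporter of the proximal tubule, lay at -0.42, -0.35, -0.04 and -0.54 ± 0.13 in W1 to W4 (r = -0.97 to 1810037I17Rik and -0.96 to Hsd3b2). Hp, the haemoglobin-binding protein haptoglobin, lay at -0.40, -0.51, 0.10 and -0.47 and was not called (limma adjusted p = 0.105). Aspg, an asparaginase, lay at -0.40, -0.38, -0.11 and -0.68 ± 0.09. Hspb1, a small heat shock protein, lay at -0.52, -0.43, -0.14 and -0.35 ± 0.08. Cdkn1a, a cyclin-dependent kinase inhibitor, lay at -0.53, -0.45, 0.04 and -0.26. Apart from Hp these genes were called in the 5-kidney test and not among W1 to W4. The minimum range favoured calls here too, so they are given as a description.

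**Figure D5:**
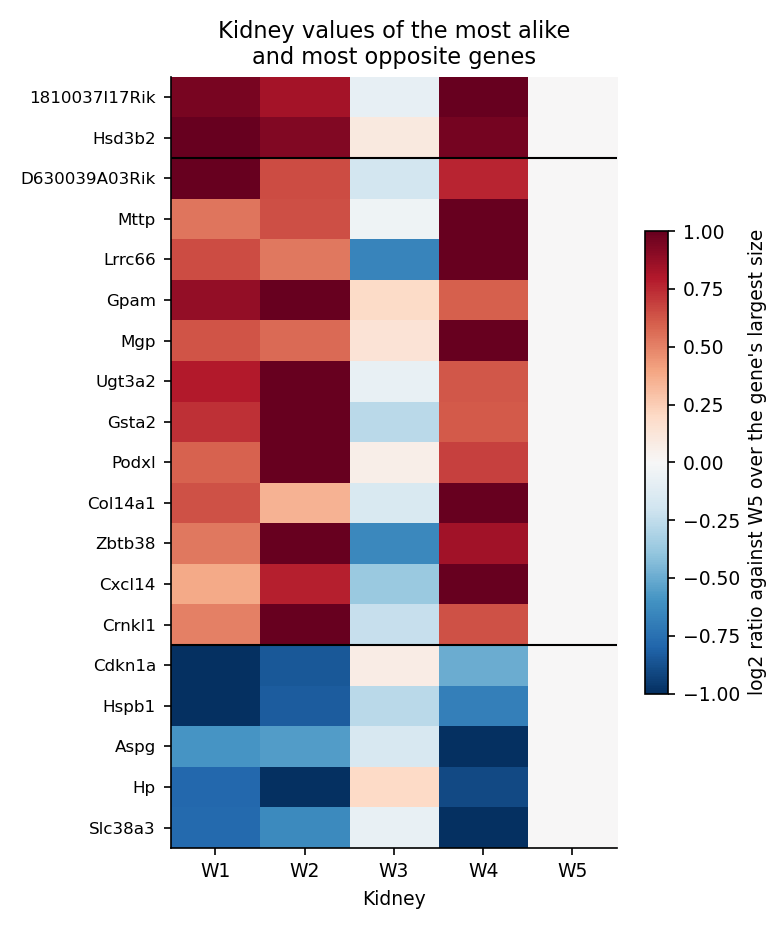
Log2 ratio against W5 divided by the gene's largest size (colour, from -1 to 1) by kidney (columns) for both members at the top, the genes most like either of them below, and the 5 most opposite genes at the bottom. In W3 the members lie near 0, and the alike genes have their largest values in W1, W2 or W4.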

How the data were processed

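Two-colour arrays were scanned on a GenePix 4000A and read with GenePix Pro 3.0, per the labels. The deposited log2 values are ratios of background-subtracted mean intensities that the authors scaled to a median ratio of 1 per array, per the labels. Log base 2 was checked from the values: on each array 1.55% to 4.90% of them matched, within 2e-06, the log2 of small whole-number ratios (up to 12), against at most 0.0342% for natural logs. Not given in the sources used here are the filter behind empty cells, each channel's dye and the numerator. Arrays were grouped by their titles, and the sign was turned where W5 was in channel 1.

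Probes with values on at least 3 of 4 arrays of every mouse were fitted with limma 3.58.1 in R 4.3.3 (mouse coefficients and a dye term, lmFit and eBayes), after tests on simulated data. P-values were two-sided and adjusted by Benjamini-Hochberg over all 15715 probes. Of 20205 probes, 11723 had 1 gene symbol, 806 several and 7676 are unnamed here; 11590 matched the GRCm38.p6 gene table. A gene with several probes used the one with most values, then the first identifier. Named were the members, the measured Hsd3b family, the 5 nearest genes on each side, called genes among the 20 nearest, called list genes (at most 8 a list) with Atp2a2, and the 10 most alike and 5 most opposite genes. Star, Cyp11a1, Pln, Calr and Canx lie outside this rule and were chosen after their values were seen. Members and lists were chosen with earlier results of these data known. Promoters are RefSeq's.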

Additional observations from a re-analysis of the deposited data

Results flagged for a closer look

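Of the 20 sets of 4 arrays examined (1810037I17Rik, Hsd3b2, Hsd3b1, Hsd3b3 and Hsd3b4 in each mouse), 1 held an array far from the others by Dixon's criterion for 4 values. Hsd3b1 lay at -0.42 on array 4 of W4, against 0.19 to 0.27 on the other arrays of W4. Its gap to the nearest array was 0.872 of the whole span, above the criterion's critical value. Chance flags about 1 in 20 such sets. No array of either member was set apart in this way.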

How the results depend on the processing

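All kidney values of 1810037I17Rik and Hsd3b2 kept their side of W5 in every alternative setting that gave them. Leaving out 1 array moved 1810037I17Rik to between 1.59 and 1.79 in W1 and Hsd3b2 to between 0.838 and 0.908. With a common median absolute deviation 1810037I17Rik was 1.98 in W1, and Hsd3b2 was 1.01 in W1 and 0.752 in W4. Quantile normalization gave 2.51, 1.64 and 1.52 for 1810037I17Rik in W1, W2 and W4, and 1.13, 0.92 and 0.699 for Hsd3b2. In that setting W4 lay nearest to W5 of W1, W2 and W4 in both genes, unlike in the order of the main fit. The dye terms passed the threshold in no setting.

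The 5-kidney count of 629 probes was 403 without the dye term and 4001 with a robust fit. The W1 to W4 count of 110 was 62, 2116 and, with array weights, 240. The sum over the 10 kidney pairs was 1127 and became 706 without the dye term and 10061 with the robust fit. Of the 80 neighbours 5 were called, against 2 without the dye term and 28 with the robust fit. Windows of other sizes, with 10 and 50 genes on each side, held 3 and 13 called genes. The window of 10 had 10.0% called around Hsd3b2 and 5.0% around 1810037I17Rik. The window of 50 had 7.0% called around each, against 4.17% of the other named genes. Of the family and steroid list without Hsd3b2, 2 were called, against 4 with quantile normalization, 4 with array weights and 11 with the robust fit. The cause was not tested. Leaving out 1 array or mouse gave 331 to 692 and 50 to 120 probes, 888 to 1338 pair calls (arrays only), 1 to 7 neighbours and 1 to 4 list genes. Without array W3.2 the W1 to W4 count was 70. Without W1 to W4 in turn it was 52, 55, 50 and 63, and the neighbours called were 1, 3, 3 and 3. The 5-kidney count was 366 without W1 and 331 without W2, where 1 list gene each was called. Neighbours were 3 without array W3.1 or W3.2, and list genes 4 without W4.2. The array number as a replicate block moved no count by over 1.5 times (590, 97, 1121, 5 and 2) and changed no side of W5; same-numbered arrays of different mice correlated in their deviations at -0.253 to 0.135, so the numbers do not pair the arrays.

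Each member ranked 1 in likeness to the other except without W1 (ranks 6 and 5), with quantile normalization (2 for 1810037I17Rik) and with no minimum range (5 each), a setting chosen after seeing the data. Of the 10 most alike genes, 8 for 1810037I17Rik and 5 for Hsd3b2 recurred over the 16 arrays, and 4 and 3 among called genes alone.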

Other observations

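Probes that the choice of 1 probe per gene left out, looked at after the data were seen, held further profiles like that of the pair. Over every tested probe with a range of at least 0.5, 7 had a correlation over 0.95 to 1810037I17Rik and 8 to Hsd3b2, of which 2 and 3 had several gene names or none here. These counts include the other member and D630039A03Rik, which are reported above. Iars2, the mitochondrial isoleucyl-tRNA synthetase, had a probe at 0.45, 0.41, -0.05 and 0.40 ± 0.07 in W1 to W4 (r = 0.99 with each). Its other probe lay at 0.10, 0.17, 0.03 and 0.22 and was not called (limma adjusted p = 0.259), so the probes disagree. Srsf5, a splicing factor, had a probe at 0.53, 0.39, 0.04 and 0.43 (r = 0.975 and 0.987), while its other probe lay at 0.32, 0.40, 0.19 and 0.17. Of 3 probes for Sparc, a matrix protein, 1 lay at 0.48, 0.58, 0.05 and 0.68 (r = 0.97 and 0.96), and the others at 0.40, 0.36, 0.26 and 0.47 and at 0.17, 0.11, -0.02 and 0.38. In each of these 3 genes W3 lay nearer to W5 than W1, W2 and W4 did on the first probe named. Those probes were picked by their correlation with the pair, so this restates the choice.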
